A study of Mus musculus with 6 samples.

Results

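The genes described here are 9 epithelial tight junction genes, Cldn1, Cldn3, Cldn4, Cldn7, Cldn10, Ocln, Tjp1, F11r and Epcam, taken by symbol from the 55291 genes listed in the count files. All 9 are listed for all 6 libraries, and 8 of them passed the filter on low counts and were tested among 17268 genes. The exception was Cldn1. RNA was sequenced from cells of the mammary glands of 6-week-old Adgra3-lz/+ mice, in which a lacZ cassette at 1 copy of the Adgra3 locus reports Gpr125, the adhesion G protein-coupled receptor that this locus encodes. Every group carried the same heterozygous allele, on an FVB/N background according to the study's methods. The series record gives both abdominal glands of 5 mice as the pool behind each sample, cut at the position of the lymph node into a distal piece, which holds the terminal end buds (TEBs), and a nipple-proximal piece. Cells bearing CD31, CD45 or Ter119 were gated out according to the series record, the methods also list an antibody to CD140a (the product of Pdgfra, a fibroblast marker) in the stain, and cells with high CD49f were separated by their conversion of the β-galactosidase substrate FDG.

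Sorted Gpr125+ cells came from the TEB-distal or the nipple-proximal piece and make up 2 groups, and Gpr125-negative cells are the third. Each group has a pair of libraries, called replicates 1 and 2 as in their labels, whose values are given in that order. The Gpr125-negative pair carries no region in its labels and is the reference of both Gpr125+ groups, so that these 2 comparisons share their control samples. Nothing in the labels says that the 2 libraries of a group came from separate sorts or animals, so p-values measure the spread between these libraries.

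Tight junctions seal the space between neighbouring epithelial cells near their apical side. Claudins are membrane proteins that form the strands and set which ions cross them, occludin (Ocln) and the junctional adhesion molecule JAM-A (F11r) lie beside them, and ZO proteins such as the product of Tjp1 tie the strands to actin. EpCAM, encoded by Epcam, is a cell surface glycoprotein that binds claudin-7 and claudin-1 and steadies them at the membrane. In the mammary duct, tight junctions with claudin-3, claudin-4 and claudin-7 belong mainly to the luminal cells that line the lumen, while the basal layer that contacts the matrix is rich in CD49f. EpCAM is found at a higher level on luminal than on basal cells, and JAM-A is also made by endothelial cells and leukocytes.

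The libraries held 20134890 to 37296640 counts, so that 3 counts, the level taken here as the floor, correspond to 0.0804 to 0.149 CPM, which are counts scaled to a common library total. Levels are normalized CPM, scaled by edgeR's TMM factors, and the floors cover counting error only because the reads carry no molecular identifiers. The 95% intervals of log2 fold changes come from edgeR's fit and rest on the spread between libraries. Counts of Adgra3 itself were 1658 and 550 under the label Gpr125-negative, 385 and 142 under TEB-distal and 391 and 262 under nipple-proximal. Its normalized CPM was 35.7 and 18.6, 15.0 and 4.83, and 19.2 and 12.3 in the same order. Its RNA was thus not lower in the libraries labelled negative. Both of these lay above both TEB-distal ones, as was so for 10% of all genes tested, and they overlapped the nipple-proximal pair. All directions below rest on those labels. The luminal keratins Krt8 and Krt18 and the basal keratins Krt5 and Krt14 were present in every library. Krt8 and Krt18 together stood at 582 to 2087 normalized CPM and Krt5 and Krt14 together at 1034 to 5462. The summed level of 11 endothelial markers was 1162 and 803 normalized CPM in the libraries labelled Gpr125-negative, against 18.5 and 19.2 in the TEB-distal pair and 217 and 24.7 in the nipple-proximal pair. Fewer cells of a type and less RNA per cell cannot be told apart in such bulk samples.

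Cldn3 and Cldn4 are neighbours. In the GENCODE M21 gene models on GRCm38, Cldn3 is a single-exon gene on the plus strand (chr5:134986214-134987472), and Cldn4 is a single-exon gene on the minus strand (chr5:134945119-134946934). Their start sites lie 39.3 kb apart, with 0 genes annotated wholly between them. The exon of Cldn3 shares 40 bases with the antisense gene Wbscr25, whose reads cannot be separated in counts made without strand. Cldn7 lies on the plus strand at chr11:69964779-69967885, Cldn10 on the plus strand at chr14:118787908-118875489 and Epcam on the plus strand at chr17:87635979-87651129. F11r is on the plus strand at chr1:171437535-171464603, Ocln on the minus strand at chr13:100496507-100552718, Tjp1 on the minus strand at chr7:65296165-65527781 and Cldn1 on the minus strand at chr16:26356642-26371841. Counts were made over whole genes, so exons and introns were not distinguished further here.

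The promoters of Cldn3, Cldn4 and Cldn7, luminal claudins that were detected in every library at widely different levels, are given here beside that of Epcam, whose level was steadier. Each window runs from 250 bases before to 50 bases after a RefSeq start site on GRCm38.p6, read 5′ to 3′ on the strand of the gene. Capitals mark the E-box CAGGTG on either strand, so that CACCTG is the same motif on the opposite strand. This is the E-box read by the SNAI and ZEB repressors of epithelial genes.
Cldn3 (chr5:134985964-134986263, plus strand): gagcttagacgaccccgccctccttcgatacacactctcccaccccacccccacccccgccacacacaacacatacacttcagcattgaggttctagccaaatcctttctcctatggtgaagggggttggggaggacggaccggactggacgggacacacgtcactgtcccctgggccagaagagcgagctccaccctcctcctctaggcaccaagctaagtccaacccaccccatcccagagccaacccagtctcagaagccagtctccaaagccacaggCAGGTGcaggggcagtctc
Cldn4 (chr5:134946885-134947184, minus strand): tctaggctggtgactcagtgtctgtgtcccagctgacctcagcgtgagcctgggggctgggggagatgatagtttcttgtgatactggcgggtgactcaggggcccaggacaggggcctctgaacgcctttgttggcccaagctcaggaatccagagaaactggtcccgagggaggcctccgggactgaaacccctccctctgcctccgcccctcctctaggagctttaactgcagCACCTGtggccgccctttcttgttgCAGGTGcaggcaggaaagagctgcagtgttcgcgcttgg
Cldn7, second start site (chr11:69965171-69965470, plus strand): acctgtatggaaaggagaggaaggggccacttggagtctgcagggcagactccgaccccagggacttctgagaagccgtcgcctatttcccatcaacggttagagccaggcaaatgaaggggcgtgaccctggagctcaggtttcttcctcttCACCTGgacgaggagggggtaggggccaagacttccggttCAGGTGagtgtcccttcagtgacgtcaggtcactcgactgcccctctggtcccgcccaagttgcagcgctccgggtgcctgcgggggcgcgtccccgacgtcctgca
Epcam (chr17:87635729-87636028, plus strand): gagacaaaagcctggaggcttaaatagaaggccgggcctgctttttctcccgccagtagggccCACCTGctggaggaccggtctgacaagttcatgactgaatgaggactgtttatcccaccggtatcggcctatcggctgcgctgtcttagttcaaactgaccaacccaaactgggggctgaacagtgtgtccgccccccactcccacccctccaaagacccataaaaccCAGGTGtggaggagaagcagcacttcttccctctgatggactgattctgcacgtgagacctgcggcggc

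The 9 genes had 12 such windows of 300 bases. CAGGTG was present on either strand in 7 of the 12 windows, which belong to 6 of the 9 genes, compared with 20.2% of 32851 mouse promoter windows of the same length. Cldn3 and F11r held 1 match each and Cldn4, Epcam and the second window of Cldn7 held 2 each. The first window of Cldn7, not printed here, and the windows of Cldn1, Cldn10 and Tjp1 held none. The 2 windows of Ocln overlap and hold 1 and 2 matches. The GC box GGGCGG, read by SP and KLF factors, was present on either strand in 10 of 12 windows against 35.7% of all windows. TATAAA was present in 0 of 12 against 13.6%, and the Grainyhead motif AACCGGTT in 0 of 12 against 0.146%. No match of one motif overlapped a match of another in the 4 sequences printed. A match describes the letters only.

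**Figure D1:**
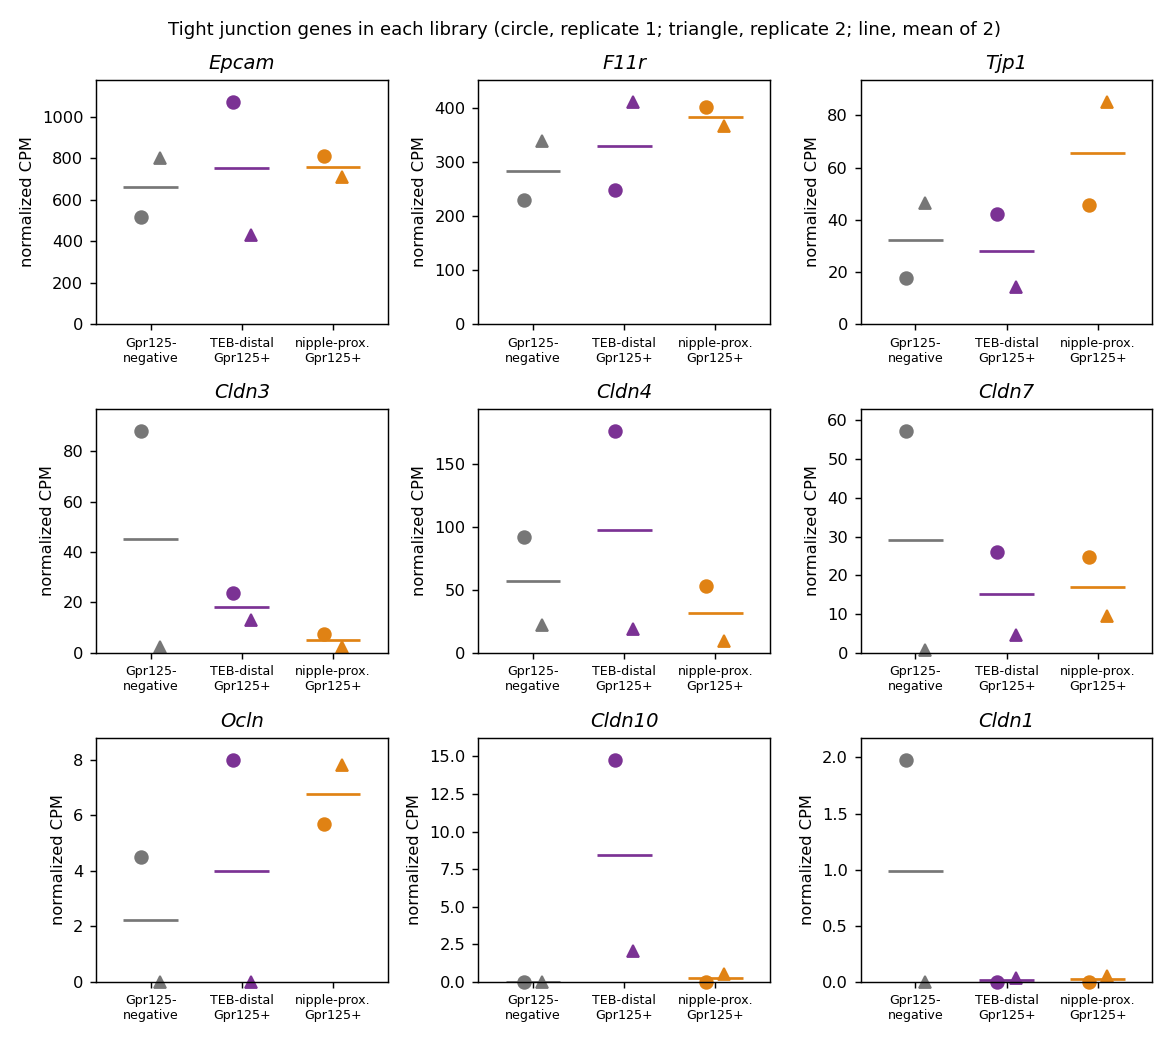
Normalized CPM (vertical axis, linear, from 0, a separate scale for each gene) of the 9 tight junction genes in the 3 groups. Each circle is replicate 1 and each triangle replicate 2 of a group, and the line is the mean of both. Epcam and F11r stay within 430 to 1072 and 229 to 411 normalized CPM, while the replicate 1 library exceeds replicate 2 for Cldn3, Cldn4 and Cldn7 in all 3 groups.

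Epcam and F11r were high in every library. Epcam had 24073 and 23622 counts in the Gpr125-negative pair, 27498 and 12625 in the TEB-distal pair and 16513 and 15036 in the nipple-proximal pair. As normalized CPM these were 518 and 800.1, 1072 and 429.8, and 811 and 708. The lowest and the highest library were both TEB-distal, so the 3 groups overlapped. F11r had 10648 and 9977 counts in the Gpr125-negative pair, 6380 and 12073 in the TEB-distal pair and 8166 and 7786 in the nipple-proximal pair. Its normalized CPM was 229 and 338, 249 and 411, and 401 and 367, and the 2 nipple-proximal libraries were both above the Gpr125-negative ones. The larger of the 2 libraries of a group exceeded the smaller by 1.15 to 2.49 times for Epcam and by 1.09 to 1.65 times for F11r.

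Tjp1, the gene of the scaffold protein ZO-1, was detected in every library at a lower level. Its counts were 822 and 1374 in the Gpr125-negative pair, 1077 and 418 in the TEB-distal pair and 929 and 1809 in the nipple-proximal pair. As normalized CPM these were 17.7 and 46.5, 42.0 and 14.2, and 45.6 and 85.2. Both nipple-proximal values exceeded both TEB-distal ones, and the Gpr125-negative libraries overlapped each of the other groups.

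Cldn3, Cldn4 and Cldn7, which encode the sealing claudins of luminal epithelium, were detected in all 6 libraries and differed widely within each group. Cldn3 had 4098 and 66 counts in the Gpr125-negative pair, which is 88.2 and 2.24 normalized CPM. In the TEB-distal libraries it had 609 and 383 counts (23.7 and 13.0 normalized CPM), and in the nipple-proximal pair 154 and 52 (7.56 and 2.45). One library labelled Gpr125-negative was the highest of all 6 and the other the lowest, and both TEB-distal values lay above both nipple-proximal ones.

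Cldn4 had 4291 and 653 counts in the Gpr125-negative pair, 4532 and 551 in the TEB-distal pair and 1085 and 203 in the nipple-proximal pair. As normalized CPM these were 92.3 and 22.1, 177 and 18.8, and 53.3 and 9.56. Each group held 1 high and 1 low library, and all 3 groups overlapped. Cldn7 had 2662 and 21 counts in the Gpr125-negative pair, 667 and 133 in the TEB-distal pair and 502 and 201 in the nipple-proximal pair. Its normalized CPM was 57.3 and 0.71, 26.0 and 4.53, and 24.65 and 9.46, and the Gpr125-negative libraries again took both ends of the range.

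In the Gpr125-negative group the higher library exceeded the lower by 80.5 times for Cldn7, 39.4 times for Cldn3 and 4.17 times for Cldn4. In the TEB-distal group these ratios were 5.74, 1.82 and 9.42, and in the nipple-proximal group 2.61, 3.09 and 5.58. The spread of these genes was set beside that of all 17268 genes tested, measured as the absolute difference in log2 CPM between the 2 libraries of a group. Over all genes its median was 0.59 among nipple-proximal, 1.20 among TEB-distal and 1.65 among Gpr125-negative libraries. The difference of Cldn7 in the Gpr125-negative group, 6.20, exceeded that of 95.4% of genes, and that of Cldn3, 5.26, exceeded 91.3%. The difference of Cldn4 exceeded 58.3% of genes there, 86.4% among TEB-distal and 93.3% among nipple-proximal libraries. By contrast, the difference of Epcam exceeded 23%, 53.7% and 19.1% of genes in the same order of groups, and that of F11r 20.9%, 32.5% and 13.1%. In every group the library numbered 1 was the higher for all of Cldn3, Cldn4 and Cldn7. The labels do not say what same-numbered libraries share. Over all genes, the deviations of same-numbered libraries had correlations of -0.03, 0.19 and -0.005 in the 3 comparisons. These values do not show whether such libraries share an effect on the 3 claudins.

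The 3 claudins did not keep one ratio to each other. Per kilobase of exon, which allows levels of different genes to be compared, the ratio of Cldn3 to Cldn4 was 1.38 and 0.146 in the Gpr125-negative pair, 0.194 and 1.00 in the TEB-distal pair and 0.205 and 0.369 in the nipple-proximal pair. The ratio of Cldn7 to Cldn4 was 0.578 and 0.030, 0.137 and 0.225, and 0.431 and 0.923 in the same order. The ratio of F11r to Epcam stayed within 0.191 to 0.788.

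Ocln, Cldn10 and Cldn1 were read in some libraries and absent from the counts of others. Ocln had 208 and 0 counts in the Gpr125-negative pair, 205 and 0 in the TEB-distal pair and 116 and 166 in the nipple-proximal pair, or 4.48 and 0, 7.99 and 0, and 5.70 and 7.81 normalized CPM. A count of 0 allowed up to 0.0901 CPM in the Gpr125-negative library and 0.102 CPM in the TEB-distal library, so occludin RNA was below the floor in 1 library of each of these groups. Within the TEB-distal group the difference in log2 CPM for Ocln, 6.86, exceeded that of 99.5% of genes tested.

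Cldn10, a claudin whose splice forms make ion-selective pores, had 0 and 0 counts in the Gpr125-negative pair, 379 and 60 in the TEB-distal pair and 0 and 11 in the nipple-proximal pair. In normalized CPM, the TEB-distal libraries stood at 14.8 and 2.04, and the nipple-proximal libraries at 0 and 0.52. Both TEB-distal libraries lay above the other 4. Cldn1, a claudin best known from skin, had 92 counts (1.98 normalized CPM) in replicate 1 of the Gpr125-negative group and 0 or 1 count in each of the other 5 libraries. Above 3 counts there were 8 and 6 of the 9 genes in the Gpr125-negative pair, 8 and 7 in the TEB-distal pair and 7 and 8 in the nipple-proximal pair.

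**Figure D2:**
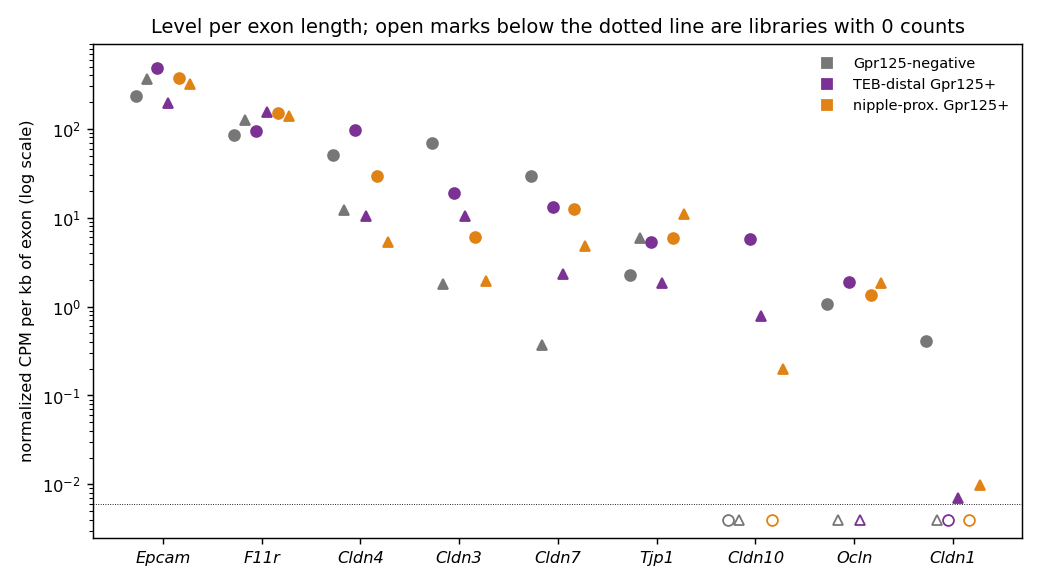
Normalized CPM per kilobase of merged exon (log scale) of the 9 genes in the 6 libraries, ordered by mean over the libraries. Circles are replicate 1 and triangles replicate 2, and open marks below the dotted line stand for libraries with 0 counts. Epcam lies between 196 and 488 in all 6 libraries, while the points of Cldn3, Cldn4 and Cldn7 spread over at least 1 order of magnitude.

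The order of levels was read per kilobase of exon. Epcam was the highest of the 9 genes in all 6 libraries, with 196 to 488 normalized CPM per kilobase and a median of 343. F11r followed with 86.0 to 154 and a median of 132, and its highest library was below the lowest of Epcam. Among 16912 tested genes with a gene model, Epcam ranked at the 98.2 to 99.6 percentile of level and F11r at 96.8 to 98.1.

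Cldn4 came next by mean level, with 5.26 to 97.3 and a median of 20.8 normalized CPM per kilobase, and exceeded F11r in replicate 1 of the TEB-distal group only. Cldn3 ranged from 1.78 to 70.0 with a median of 8.18, Cldn7 from 0.37 to 29.4 with a median of 8.76 and Tjp1 from 1.82 to 10.9 with a median of 5.61. The percentile of Cldn3 ranged from 48.1 to 96 between libraries and that of Cldn7 from 33.1 to 90.4. Cldn10 (0 to 5.70), Ocln (0 to 1.89) and Cldn1 (0 to 0.41) were the lowest. Apart from Epcam above F11r, neighbours in this order overlapped between libraries, so their order was not larger than the spread.

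The comparison of TEB-distal Gpr125+ with Gpr125-negative cells asks how the cells near the invading ducts differ from cells of the same CD49f gate that do not report Gpr125. Cldn10 was the member that differed most, with RNA in the whole TEB-distal pair and 0 counts throughout the Gpr125-negative pair. The other 7 tested members overlapped between the groups. The means of Epcam, F11r and Tjp1, and those of Cldn3, Cldn4 and Cldn7, lay closer to each other than the 2 libraries of the Gpr125-negative group did.

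The mean of Cldn10 was 8.41 ± 9.00 normalized CPM (SD, n = 2) in TEB-distal cells. Against 3 counts per library in the Gpr125-negative pair this is at least 101-fold higher, and at least 24.6-fold for the lower of the TEB-distal libraries. These bounds cover counting error only and not the spread between libraries. Its unadjusted p was 0.0137 and its adjusted p 0.803 by edgeR's quasi-likelihood test with Benjamini-Hochberg adjustment over 17268 genes. It passed the filter on low counts through the TEB-distal pair, in which it was high, so these p-values describe a gene that had to differ to be tested. DESeq2 on the 4 compared libraries called it (adjusted p = 3.4e-04), as did DESeq2 on all 6 (adjusted p = 8.4e-04) and edgeR without the filter on low counts (adjusted p = 0.059). Over all alternatives the adjusted p of these tools ranged from 3.4e-04 to 1. Cldn10 is among the genes the study displayed from these same libraries, so its choice is not independent of the direction.

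By edgeR's quasi-likelihood test at a false discovery rate under 0.1 and at least a 2-fold change, 0 of the 8 tested members were called, against 0% of all genes. At an unadjusted p under 0.05 the count was 1 of 8, against 6.05% of genes. This member was Cldn10, which had to be high in the TEB-distal pair to be tested, so its count is no independent result. With DESeq2 on the 4 compared libraries it was 1 of the members, again Cldn10, against 4% of genes. The libraries did not overlap for 1 member that was higher, Cldn10, and for 0 that were lower, where 14% of genes were higher and 10% lower without overlap. The median log2 fold change of the 8 members was 0.20, and that of all genes 0.03.

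Epcam averaged 751 ± 454 normalized CPM (SD, n = 2) in TEB-distal cells, beside 659 ± 199.5 in Gpr125-negative cells, a log2 fold change of 0.19 ± 0.77 (SE), with a 95% interval of -1.58 to 1.96. F11r averaged 330 ± 115 against 284 ± 77.0, a log2 fold change of 0.22 ± 0.68 with an interval of -1.35 to 1.79. The log2 fold change of Tjp1 was -0.19 ± 0.83, and its interval ran from -2.12 to 1.73. These intervals include changes of more than 2-fold in either direction.

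Cldn3 averaged 18.4 ± 7.57 normalized CPM (SD, n = 2) in TEB-distal cells, beside 45.2 ± 60.8 in Gpr125-negative cells, with a log2 fold change of -1.30 ± 1.42 (SE). Cldn4 averaged 97.7 ± 112 against 57.2 ± 49.6, with a log2 fold change of 0.77 ± 1.24. Cldn7 averaged 15.3 ± 15.2 against 29.0 ± 40.0, with a log2 fold change of -0.93 ± 1.63. Ocln averaged 4.0 ± 5.65 against 2.24 ± 3.16, with a log2 fold change of 0.83 ± 2.7. The adjusted p of each of these genes, and of Epcam, F11r and Tjp1, was 1 by edgeR's quasi-likelihood test with Benjamini-Hochberg adjustment. Without replicate 1 of the Gpr125-negative group the log2 fold changes of Cldn3 and Cldn7 were 2.90 and 4.26, so that the direction of both rested on that library. The median of the members was then 2.44 and that of all genes 0.53. Without replicate 1 of the TEB-distal group that of Cldn4 was -1.59, and Ocln, at 0 in the library that remained, was lower than in Gpr125-negative cells. The signs of Epcam, F11r and Tjp1 also turned with 1 library left out.

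**Figure D3:**
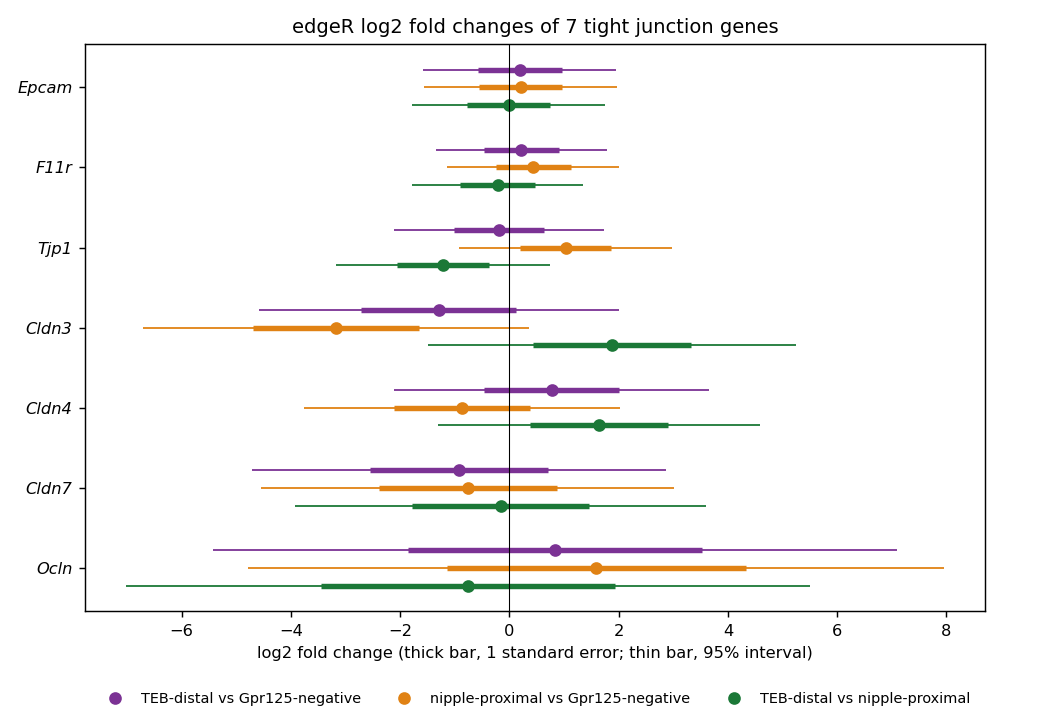
Log2 fold changes from edgeR (horizontal axis) of 7 tight junction genes in the 3 comparisons, with 1 standard error as a thick bar and the 95% interval as a thin bar. Cldn1 was not tested and Cldn10, at 0 counts in the Gpr125-negative pair, has no bounded fold change. All 21 intervals include 0, and those of Epcam and F11r are the narrowest.

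Nipple-proximal Gpr125+ cells were compared with the same Gpr125-negative libraries. F11r and Ocln were higher in both nipple-proximal libraries than in both Gpr125-negative ones, without passing the test. Of all genes tested, 19.9% were higher in this way. Cldn3 had the fitted difference furthest below 0, with 1 Gpr125-negative library far above and the other beside the nipple-proximal values. Epcam, Cldn4 and Cldn7 overlapped between the groups.

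F11r averaged 384 ± 24.4 normalized CPM (SD, n = 2) in nipple-proximal cells, and its log2 fold change was 0.44 ± 0.68 (SE) with a 95% interval of -1.14 to 2.01. Ocln averaged 6.76 ± 1.5, a log2 fold change of 1.59 ± 2.74, with 116 and 166 counts against 208 and 0. Tjp1 averaged 65.4 ± 28.0 against 32.1 ± 20.4 normalized CPM, a log2 fold change of 1.03 ± 0.84 with an interval of -0.92 to 2.97. Epcam averaged 759 ± 72.9, and its interval ran from -1.56 to 1.97. With 1 library left out, the log2 fold changes ranged from 0.05 to 0.75 for F11r, 0.60 to 10.38 for Ocln and 0.35 to 1.89 for Tjp1, where the lowest of F11r and Tjp1 and the highest of Ocln came without replicate 1 of the Gpr125-negative group and the opposite ends without replicate 2. The highest of Ocln is set against 0 counts and is no bound.

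Cldn3 averaged 5.01 ± 3.62 normalized CPM against 45.2 ± 60.8 in Gpr125-negative cells, a log2 fold change of -3.17 ± 1.52 with an interval of -6.70 to 0.36 (unadjusted p = 0.0716, adjusted p = 1 by edgeR's quasi-likelihood test). Cldn4 averaged 31.4 ± 30.9 and Cldn7 17.1 ± 10.7 normalized CPM in nipple-proximal cells, with log2 fold changes of -0.87 ± 1.25 and -0.77 ± 1.63. Without replicate 1 of the Gpr125-negative group the log2 fold changes of Cldn3, Cldn4, Cldn7 and Epcam were 1.03, 0.38, 4.45 and -0.21, beside a median of 0.40 over all genes. Cldn10 had 11 counts in 1 nipple-proximal library and 0 in the other 3 libraries of this comparison.

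In this comparison 0 of 8 members were called by edgeR's quasi-likelihood test against 0% of genes, and 0 had an unadjusted p under 0.05 against 3.55%. DESeq2 on the 4 compared libraries called 0 members against 2.02% of genes. Without overlap between the groups, 2 members were higher and 0 lower, where 19.9% of genes were higher and 10.8% lower. The median log2 fold change of the members was 0.32, and that of all genes -0.003.

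The comparison of TEB-distal with nipple-proximal Gpr125+ cells sets both regions side by side. Both libraries of TEB-distal cells exceeded both of nipple-proximal cells for Cldn10 and Cldn3, and both lay under them for Tjp1. Of all genes tested, 15.2% were higher and 18.3% lower in this way. Epcam had almost the same mean in the 2 regions. No member passed edgeR's quasi-likelihood test.

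Cldn10 stood at 8.41 ± 9.00 normalized CPM (SD, n = 2) in TEB-distal cells, beside 0.26 ± 0.37 in nipple-proximal cells, where 1 library had 0 counts and the other 11. Here too it passed edgeR's filter on low counts through the TEB-distal pair, in which it was high. Its unadjusted p was 0.0873 and its adjusted p 1 by edgeR's quasi-likelihood test, whereas the adjusted p was 0.037 with DESeq2 fitted to these 4 libraries alone and 0.402 to 1 in the other alternatives. Cldn3 averaged 18.4 ± 7.57 against 5.01 ± 3.62 normalized CPM, a log2 fold change of 1.88 ± 1.45 (SE) with a 95% interval of -1.48 to 5.24. Tjp1 averaged 28.1 ± 19.6 against 65.4 ± 28.0, a log2 fold change of -1.22 ± 0.84 with an interval of -3.17 to 0.74. The direction of Cldn3 and Tjp1 was the same whichever library was left out, with log2 fold changes of 1.26 to 2.90 and of -2.13 to -0.66.

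Cldn4 averaged 97.7 ± 112 against 31.4 ± 30.9 normalized CPM, a log2 fold change of 1.64 ± 1.27, and without replicate 1 of the TEB-distal group it was -0.69. Cldn7 had a log2 fold change of -0.16 ± 1.62 and Ocln one of -0.76 ± 2.69. Epcam had one of -0.02 ± 0.77 with an interval of -1.78 to 1.75, and F11r one of -0.22 ± 0.68 with an interval of -1.79 to 1.35. The signs of Cldn7, Ocln, Epcam and F11r turned when 1 Gpr125+ library was left out.

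Here 0 of 8 members were called by edgeR against 0% of genes, and 0 had an unadjusted p under 0.05 against 2.21% of genes. DESeq2 on the 4 compared libraries called 1 member, Cldn10, against 2.29% of genes. Groups did not overlap for 2 members that were higher and 1 that was lower in TEB-distal cells, where 15.2% of genes were higher and 18.3% lower. The median log2 fold change of the members was -0.09, and that of all genes 0.06. Cldn1, which the filter removed, had unadjusted p-values of 0.111, 0.135 and 0.906 in the 3 comparisons when edgeR was run without the filter. With 2 libraries against 2, an exact permutation test of a single gene cannot give a p below 0.333.

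**Figure D4:**
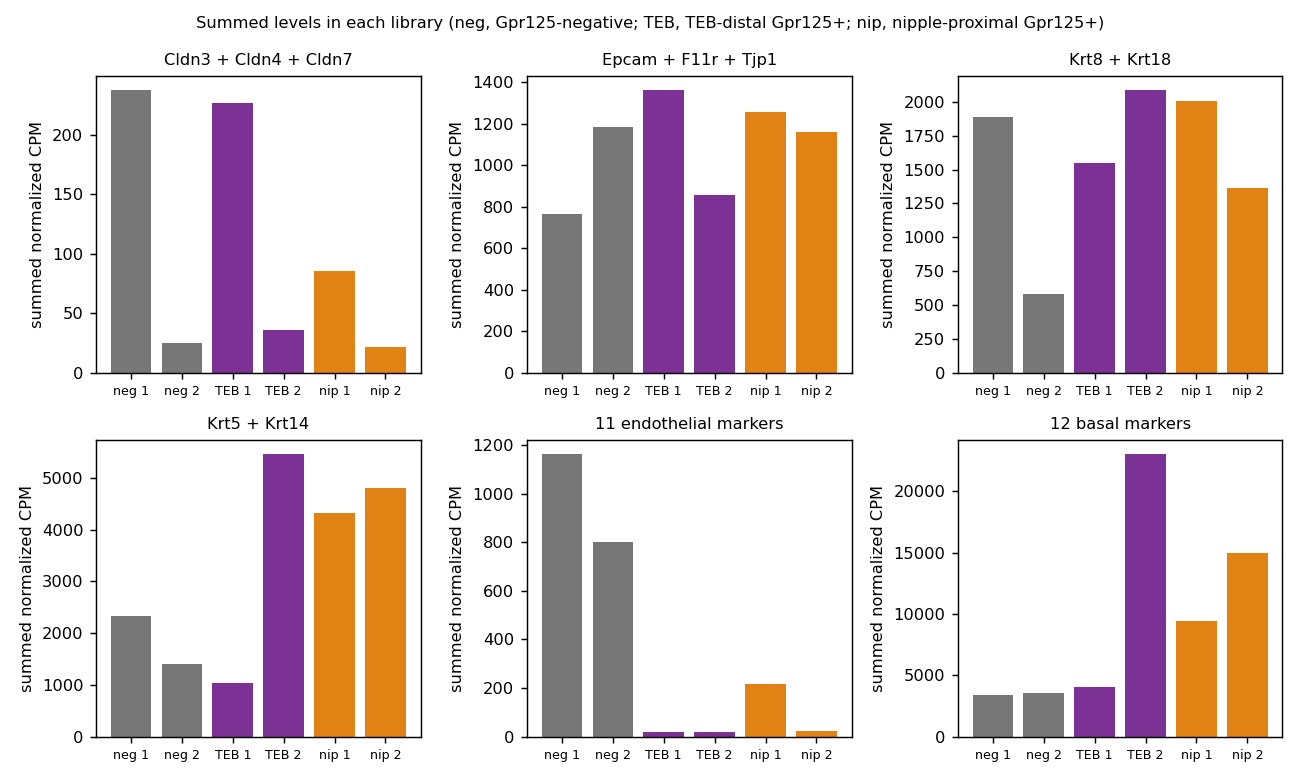
Summed normalized CPM (bars from 0) in each of the 6 libraries for Cldn3, Cldn4 and Cldn7, for Epcam, F11r and Tjp1, for the luminal keratins Krt8 and Krt18, the basal keratins Krt5 and Krt14, 11 endothelial markers and 12 basal markers. The 3 claudins stand at 238 and 226 in 2 libraries and at 21.5 to 85.5 in the other 4, and endothelial markers are highest in the 2 libraries labelled Gpr125-negative.

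The summed level of Cldn3, Cldn4 and Cldn7 was set beside the markers of the cell types the gate could hold. It was 238 and 25.1 normalized CPM in the Gpr125-negative pair, 226 and 36.3 in the TEB-distal pair and 85.5 and 21.5 in the nipple-proximal pair. Krt8 and Krt18 together stood at 1886 and 582, 1546 and 2087, and 2004 and 1362 in the same order. The library with the lowest Krt8 and Krt18 was among the low ones for these claudins, and the library with the highest had 36.3 normalized CPM of them. These 2 keratins do not stand for all luminal markers.

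Relative to Krt8 and Krt18, Cldn4 was 4.90% and 3.80% in the Gpr125-negative pair, 11.4% and 0.899% in the TEB-distal pair and 2.66% and 0.701% in the nipple-proximal pair. Cldn7 was 3.04% and 0.122%, 1.68% and 0.217%, and 1.23% and 0.695%. Replicate 1 of each group thus stayed the higher on this scale. The gap between the libraries of a group was narrower than in normalized CPM for the Gpr125-negative and nipple-proximal groups. For the TEB-distal group it was wider. Epcam ranged from 20.6% to 137% of the same sum. The whole list of 16 luminal markers, 0 to 3 of which were at 0 counts in a library, summed to 2355 and 684, 2090 and 2431, and 2159 and 1610 normalized CPM. Krt8 and Krt18 made up most of this sum in every library, so it says little about the other luminal markers. The 12 basal markers, none at 0, summed to 3393 and 3554, 4017 and 23031, and 9449 and 14952, and the 2 libraries with the highest Cldn4 were among the 3 lowest for them.

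Fibroblast markers (10 genes) summed to 28.6 to 176 normalized CPM, pericyte markers (6 genes) to 1.67 to 24.4 and leukocyte markers (10 genes) to 21.8 to 75.6. TEB-distal cells had more fibroblast marker RNA than nipple-proximal cells (91.5 and 176 against 69.2 and 53.3) and a lower leukocyte marker sum (31.2 and 29.2 against 66.3 and 46.7). They had less pericyte marker RNA than Gpr125-negative cells (5.26 and 1.67 against 9.85 and 24.4). These sums did not overlap, while the other pairs of groups overlapped for these lists. Of all single genes tested, 15.2% were higher and 18.3% lower without overlap in TEB-distal than in nipple-proximal cells. Against Gpr125-negative cells 10% were lower without overlap. Adipocyte markers summed to 672 and 644 in the libraries labelled Gpr125-negative and to 1.65 to 23.6 in the other 4, nearly all of it Fabp4, which capillary endothelium also expresses. At an unadjusted p under 0.05, 8 of 11 endothelial markers were lower and 6 of 12 basal markers higher in TEB-distal than in Gpr125-negative cells, where 2.25% of all genes were lower and 3.8% higher. In that comparison 10 basal markers had a log2 fold change above 0 and 2 below, Krt5 (-0.09) and Trp63 (-2.27). Trp63 stood at 58.1 and 8.40 normalized CPM in the Gpr125-negative pair and at 7.33 and 6.47 in the TEB-distal pair. Between nipple-proximal and Gpr125-negative cells 3 of 11 endothelial markers were lower and 3 of 12 basal markers higher, where 0.927% of all genes were lower and 2.62% higher. F11r, which endothelium also makes, stood at 229 and 338 normalized CPM in the Gpr125-negative pair, where the endothelial sum was highest. It stood at 249 and 411 in the TEB-distal pair and at 401 and 367 in the nipple-proximal pair. The part of any of these cell types in the levels of the tight junction genes was not tested.

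**Figure D5:**
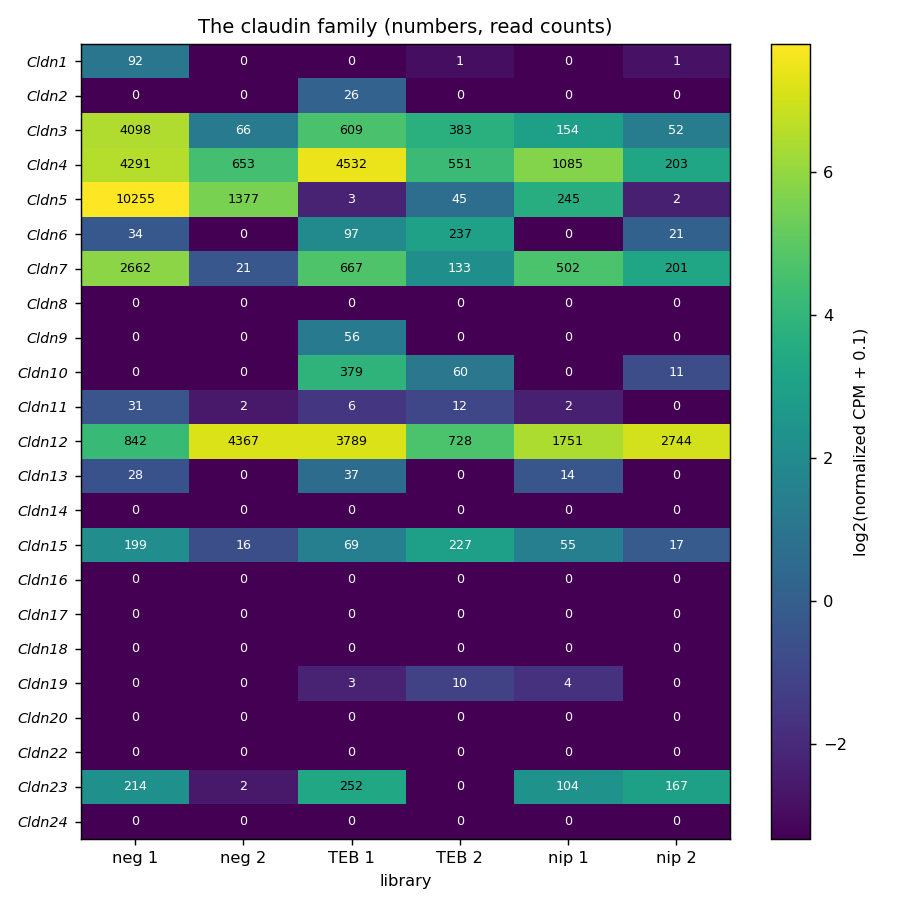
Read counts (printed in each cell) of the 23 claudin genes in the count files, in the 6 libraries (neg, Gpr125-negative; TEB, TEB-distal; nip, nipple-proximal), coloured by log2 of normalized CPM plus 0.1. Cldn12 is above 700 counts in every library, Cldn3, Cldn4 and Cldn7 are detected in all 6, and 8 claudins are at 0 throughout.

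The count files hold 18 claudins beside the 5 above, of which 7 were tested and 0 called in any comparison. Cldn12, a claudin that lacks the usual motif for binding ZO proteins, had 842 and 4367 counts in the Gpr125-negative pair, 3789 and 728 in the TEB-distal pair and 1751 and 2744 in the nipple-proximal pair. Its normalized CPM was 18.1 and 148, 148 and 24.8, and 86.0 and 129, so that its lowest library was the one with the most Cldn3. Its log2 fold changes were 0.06 and 0.37 against Gpr125-negative cells and -0.32 between the regions.

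Cldn5, the claudin of endothelial tight junctions, had 10255 and 1377 counts in the Gpr125-negative pair, 3 and 45 in the TEB-distal pair and 245 and 2 in the nipple-proximal pair. Its fitted log2 fold change in TEB-distal against Gpr125-negative cells was -7.32 ± 2.25 (SE), with an unadjusted p of 0.0123 and an adjusted p of 0.803 by edgeR's quasi-likelihood test. The libraries rich in Cldn5 were those rich in endothelial markers. Cldn23 had 214 and 2 counts, 252 and 0, and 104 and 167 in the 3 groups, and the low libraries were those in which Ocln was at 0. Cldn8, Cldn14, Cldn16, Cldn17, Cldn18, Cldn20, Cldn22 and Cldn24 had 0 counts in all 6 libraries. The median log2 fold changes of the 7 tested claudins were 1.07, 0.17 and 1.06 in the 3 comparisons.

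Of 24 tight junction partners, the scaffold, polarity and tricellular proteins that sit with the members at the junction, all were tested and 0 were called. At an unadjusted p under 0.05, 0 were higher in each comparison, and 2, 1 and 2 were lower, where 2.25%, 0.927% and 1.46% of all genes were lower and 3.8%, 2.62% and 0.747% higher. Cgnl1, the gene of paracingulin, had 10646 and 2605 counts in the Gpr125-negative pair, 756 and 878 in the TEB-distal pair and 685 and 461 in the nipple-proximal pair. Its log2 fold changes against Gpr125-negative cells were -2.42 ± 0.73 (SE, unadjusted p = 0.0114, adjusted p = 0.803 by edgeR's quasi-likelihood test) and -2.52 ± 0.74 (unadjusted p = 0.0095, adjusted p = 1). Paracingulin is made by endothelial as well as epithelial cells.

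Ildr1, of the angulin family at tricellular contacts, and Crb3, an apical polarity protein, were lowest in the TEB-distal pair. Ildr1 had 777 and 823 counts in the Gpr125-negative pair, 200 and 90 in the TEB-distal pair and 691 and 732 in the nipple-proximal pair. Its log2 fold change was -2.04 ± 0.84 against Gpr125-negative (unadjusted p = 0.0416) and -2.65 ± 0.86 against nipple-proximal cells (unadjusted p = 0.0150) in edgeR's quasi-likelihood test. Crb3 had 1291 and 691, 262 and 212, and 826 and 647 counts, and its log2 fold change between the regions was -2.03 ± 0.74 (unadjusted p = 0.0258). The adjusted p-values of both genes by this test were 0.815 to 1.

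The partners with the highest mean level were Cxadr, Ybx3 and Mpp5. Cxadr, a junctional adhesion protein that also serves viruses as a receptor, ranged from 41.1 to 634 normalized CPM, Ybx3, a ZO-1-binding transcription factor, from 107 to 386, and Mpp5, a polarity scaffold also called Pals1, from 16.7 to 243. The library with the lowest Cxadr and Mpp5, replicate 1 of the Gpr125-negative group, was also the lowest for Cldn12 and the highest for Cldn3 and Cldn7. The median log2 fold changes of the 24 partners were -0.24, -0.53 and 0.08.

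Among the proteins that act on EpCAM, the protease St14 (matriptase) and its inhibitor Spint2 were detected in every library. Spint2 ranged from 256 to 838 normalized CPM and St14 from 71.3 to 214, and neither was called or had an unadjusted p under 0.05 in any comparison. Of 7 regulators of epithelial genes, the Grhl, Ovol and Esrp factors, 0 were called or had an unadjusted p under 0.05. Esrp1, a splicing factor of epithelia, ranged from 18.6 to 184 normalized CPM, Ovol1 from 13.3 to 30.6 and Grhl2 from 14.3 to 25.5. The medians of these 7 genes were 0.27, 0.39 and 0.02.

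The genes whose levels ran most like those of the members over the 6 libraries were found by the Pearson correlation of log2 CPM with the mean z-score of the 8 tested members. They were Il33 (0.993), Zadh2 (0.991), Ndufc2 (0.990), Gm43581 (0.988) and 4921501I09Rik (0.987), the highest of 17268 genes over 6 libraries. All genes were read in these same libraries, with the same groups and differences in depth. Il33 had 54 and 1 counts in the Gpr125-negative pair, 1439 and 4 in the TEB-distal pair and 115 and 23 in the nipple-proximal pair. Replicate 1 of the TEB-distal group, where 4 of the 9 tight junction genes, Epcam, Cldn4, Cldn10 and Ocln, had their highest level, was the highest library for Il33.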

How the data were processed

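RNA of 6 libraries was made with the SMART-Seq HT kit, an oligo(dT)-primed amplification. The authors aligned reads to mm10 with STAR (2.7.3 in the submitters' processing notes, another release in the methods), counted them per gene without strand with HTSeq, and deposited raw read counts, which were analysed as deposited. The annotation release is not given in the sources used here. Symbols were matched to GENCODE M21 (53292 of 55291 found, 96.4%), whose merged exons gave lengths, and promoter windows are from RefSeq (GRCm38.p6). No replicate pair held identical counts.

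Counts of all 6 libraries were fitted in 1 model with edgeR 4.0.16 in R 4.3.3 (TMM, filterByExpr by group, robust glmQLFit, glmQLFTest, 17268 genes). Calls needed an FDR (Benjamini-Hochberg) below 0.1 with 2-fold change or more. These are the thresholds of the study, which applied them to DESeq2 results and not to edgeR. Log2 CPM used a prior count of 2. Folds against groups at 0 counts were set against 3 counts per library. Alternatives were DESeq2 1.42.0 on 6 and on 4 libraries, DESeq2 size factors, edgeR on 4 libraries, 2 other filters, the replicate block, no robust estimation and leaving out each library. Scripts were tested on simulated counts.

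The members and gene lists were chosen with earlier results of these data known. Every member is named. Of the pathway lists, genes with an unadjusted p under 0.05 in any comparison and the 3 with the highest mean level are named, with the 5 genes most like the members. Outside this rule, chosen after their values were seen, are the claudins at 0 counts, Adgra3, which checks the sort, Fabp4, Cd74, Trp63 and Wbscr25. Of the list of EpCAM-acting proteins, 1 result is not reported here.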

Additional observations from a re-analysis of the deposited data

How the results depend on the processing

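Members called in TEB-distal against Gpr125-negative cells went from 0 to 1, Cldn10, with DESeq2 on 6 libraries, DESeq2 on 4 libraries and edgeR without the filter on low counts, and from 0 to 1, Cldn10, between the regions with DESeq2 on 4 libraries. All genes called went from 0 in each comparison to 943, 321 and 129 with DESeq2 on 6 libraries (TEB-distal against Gpr125-negative, nipple-proximal against Gpr125-negative, and TEB-distal against nipple-proximal), to 667, 317 and 360 with DESeq2 on 4 libraries and to 137, 58 and 39 without the filter. Leaving out 1 library gave 0 to 747, 0 to 335 and 0 to 12 genes called, with 747 and 335 both without replicate 1 of the Gpr125-negative group and 12 without replicate 2 of the nipple-proximal group, and 0 members called in each case. The median of the members then ranged from -1.40 to 2.44, 0.16 to 0.71 and -0.72 to 0.53, where 2.44 came without replicate 1 of the Gpr125-negative group.

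With 1 library left out, log2 fold changes in TEB-distal against Gpr125-negative cells ranged from -2.27 to 2.90 for Cldn3, -1.59 to 1.99 for Cldn4, -2.65 to 4.26 for Cldn7, -9.03 to 9.60 for Ocln, -1.20 to 0.66 for Tjp1, -0.19 to 0.52 for F11r and -0.64 to 0.70 for Epcam. In nipple-proximal against Gpr125-negative cells they ranged from -4.21 to 1.03 for Cldn3, -2.58 to 0.38 for Cldn4, -1.74 to 4.45 for Cldn7, 0.60 to 10.38 for Ocln, 0.35 to 1.89 for Tjp1, 0.05 to 0.75 for F11r and -0.21 to 0.56 for Epcam. Between the regions they ranged from -0.69 to 3.35 for Cldn4, -1.86 to 0.69 for Cldn7, -10.59 to 0.22 for Ocln, -0.64 to 0.16 for F11r and -0.76 to 0.48 for Epcam. The log2 fold change of Epcam between the regions was also 0.12 with DESeq2 size factors, 0.12 with DESeq2 on 6 libraries, 0.037 on 4 libraries and 0.034 with a filter of 1 CPM in 2 libraries. Over the alternatives the median of all genes ranged from -0.20 to 0.53, -0.17 to 0.40 and -0.07 to 0.19 in the 3 comparisons, beside 0.03, -0.003 and 0.06. Fitted values of Ocln against a group at 0 counts are no bounds. The cause of these changes was not tested. Cldn10 in nipple-proximal against Gpr125-negative cells gave no value with edgeR on 4 libraries, where the filter removed it, or without replicate 2 of the nipple-proximal group, where both groups were at 0.

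With the replicate number as a block, 0 genes and 0 members were called, and Cldn7 had log2 fold changes of 0.069 in TEB-distal and 0.79 in nipple-proximal against Gpr125-negative cells. The block also gave -0.10 for Cldn3, 0.36 for Cldn4 and -0.05 for Tjp1 in TEB-distal against Gpr125-negative cells, 7.17 for Ocln in nipple-proximal against Gpr125-negative cells and -0.72 for Cldn7, -6.46 for Ocln and -0.07 for Epcam between the regions. The labels do not say what same-numbered libraries share. Their deviations had correlations of -0.03, 0.19 and -0.005 over 17268 genes, with 2 pairs per comparison. Such values over all genes cannot show whether single genes share an effect of the replicate number.

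Depth did not limit Epcam and F11r, with at least 6380 counts in every library. Ocln, Cldn10 and Cldn1 had 0 to 379 counts. Ocln was at 0 in libraries of 33300561 and 29279042 total counts, and at 116 in the library with the fewest, 20134890. The cause of these zeros was not tested. Each group had 2 libraries.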
